A study of Mus musculus with 4 samples.

Results

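The TRAV segments are the variable gene segments of the T cell receptor alpha chain, and they were described here in thymocytes with and without Cgas, the gene of the cytosolic DNA sensor cGAS. Every TRAV name in the V gene column of a TRA contig was taken as a member and placed in its family by number and in 1 of 3 copy groups by suffix: plain, D or N. This gave 88 TRAV segments in 20 families, of 165 V and J segments named in TRA and TRB contigs, and all 88 were named in both libraries. WT cells came from Cd4-Cre mice and Cgas KO cells from Cd4-Cre mice with floxed alleles of Cgas, so both groups carried the Cre transgene, which acts once thymocytes have reached the stage with both CD4 and CD8. The cells were thymocytes sorted for the chemokine receptor CCR7, found on cells that are maturing, and labelled as CD4+CCR7+. Each genotype had 1 droplet expression library and 1 T cell receptor (TCR) library, and neither the number of mice per library nor their age is given in the sources used here. No difference between genotypes therefore has a replicate check, and genotype and library cannot be told apart. All intervals are exact 95% intervals, and they cover counting error only.

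A developing alpha beta T cell assembles its alpha chain in the double-positive stage by joining a TRAV to a TRAJ segment. The TRAJ segments lie downstream of the TRAV segments with numbers that fall with distance, and a cell may recombine the same allele again, joining TRAV segments further upstream to TRAJ segments further downstream. In many mouse strains the central TRAV array has been duplicated, which gave the D and N copies of segments whose plain copies lie nearest to the TRAJ segments. The CDR1 and CDR2 loops are encoded by the TRAV segment, whereas CDR3 spans the join.

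The WT library gave 12774 TRA contigs on kept cells and the Cgas KO library 14600, with a median of 5 unique molecular identifiers (UMIs) per contig in both. The expression matrices held 13069 WT and 14886 Cgas KO cells with medians of 4918 and 4433 UMIs. Cgas itself was read at 337 UMIs in WT cells (4.48 CPM, UMIs scaled to a common library total) and at 221 UMIs in Cgas KO cells (2.89 CPM), so some Cgas RNA was still counted in the library labelled Cgas KO. The floxed stretch is not given in the labels, so whether these UMIs check the deletion was not tested. A further feature set the Cgas KO TCR library apart: 1606 of its 13940 TCR barcodes (11.5%, 95% interval 11.0 to 12.1%) stood in 803 pairs that shared both a TRA and a TRB rearrangement, against 61 of 12121 barcodes (0.503%, 0.385 to 0.646%) in WT. The paired Cgas KO barcodes had a median of 3139.5 UMIs and the other Cgas KO barcodes 4548. Whether such a pair is 1 cell read more than once was not tested. The counts and intervals given here treat every barcode as a separate cell, and 1500 of the Cgas KO and 487 of the WT chains repeat a rearrangement already counted in their library. Keeping 1 barcode of each set that shared both chains was an alternative added after the data were seen. It moved no family share by more than 0.132 percentage points and no copy group by more than 0.203 points. Counting each distinct rearrangement once moved no family share by more than 0.351 points and no copy group by more than 0.155 points. The WT and Cgas KO TCR libraries had 272 barcodes in common, and none of them carried the same TRA chain in both.

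In the RefSeq annotation of mouse assembly GRCm38.p6, the TRAV array spans positions 52427967 to 53977678 of chromosome 14 and holds 130 Trav symbols, of which 16 are pseudogenes. A few plain segments, TRAV1 and TRAV2 among them, form its 5' end (52427967 to 52667864, 8 symbols, 7 named in contigs). The D block follows (52683964 to 53082522, 40 symbols, 31 named), then the N block (53091346 to 53375278, 34 symbols, 13 named). The remaining plain segments form the 3' end of the array (53390633 to 53977678, 48 symbols, 37 named). Of the 42 symbols that no contig carried, 26 are annotated as V segments, and 18 of these 26 belong to the N block. A name absent from the contigs allows a share of up to 0.0235% of chains in WT and 0.0205% in Cgas KO if the contig naming could have returned it.

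The copies of a segment can be close in sequence, as the V regions of the TRAV14-3 and TRAV16 members show. These members are printed because their copies paired with different TRAJ segments (TRAV14-3) or differed between coreceptor classes (TRAV16). Each line gives the commonest V region over both libraries, from framework 1 to framework 3, 5' to 3', as assembled in the contigs, and capitals mark bases at which a copy differs from the plain copy at the head of its set.
TRAV14-3: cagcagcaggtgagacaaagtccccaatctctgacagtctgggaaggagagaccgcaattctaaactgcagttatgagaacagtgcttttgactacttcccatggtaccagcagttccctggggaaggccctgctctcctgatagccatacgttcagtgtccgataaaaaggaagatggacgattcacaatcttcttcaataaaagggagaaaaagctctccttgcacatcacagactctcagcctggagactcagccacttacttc
TRAV14D-3-DV8: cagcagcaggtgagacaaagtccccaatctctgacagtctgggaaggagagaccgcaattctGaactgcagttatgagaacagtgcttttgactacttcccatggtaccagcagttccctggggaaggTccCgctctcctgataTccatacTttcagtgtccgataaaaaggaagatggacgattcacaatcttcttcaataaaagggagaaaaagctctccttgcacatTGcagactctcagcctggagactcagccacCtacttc
TRAV14N-3: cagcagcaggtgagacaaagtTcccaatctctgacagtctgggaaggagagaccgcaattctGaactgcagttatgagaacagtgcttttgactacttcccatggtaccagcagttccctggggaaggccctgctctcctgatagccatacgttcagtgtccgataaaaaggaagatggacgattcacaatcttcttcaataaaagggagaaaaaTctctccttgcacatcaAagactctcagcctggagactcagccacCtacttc
TRAV16: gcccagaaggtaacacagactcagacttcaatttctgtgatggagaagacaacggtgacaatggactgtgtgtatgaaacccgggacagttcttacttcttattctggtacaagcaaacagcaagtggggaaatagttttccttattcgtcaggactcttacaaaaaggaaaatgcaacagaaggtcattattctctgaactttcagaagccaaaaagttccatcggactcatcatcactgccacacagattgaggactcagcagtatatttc
TRAV16D-DV11: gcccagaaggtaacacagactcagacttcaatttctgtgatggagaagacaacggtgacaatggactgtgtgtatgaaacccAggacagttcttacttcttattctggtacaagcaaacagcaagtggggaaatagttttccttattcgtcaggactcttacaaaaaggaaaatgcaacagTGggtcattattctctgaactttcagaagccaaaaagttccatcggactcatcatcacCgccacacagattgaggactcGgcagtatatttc
TRAV16N: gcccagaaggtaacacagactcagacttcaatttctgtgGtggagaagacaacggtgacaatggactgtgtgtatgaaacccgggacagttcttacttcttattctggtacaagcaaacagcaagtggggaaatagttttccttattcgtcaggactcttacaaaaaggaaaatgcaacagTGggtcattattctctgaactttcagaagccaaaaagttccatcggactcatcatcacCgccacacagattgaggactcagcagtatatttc
TRAV14D-3-DV8 differed from TRAV14-3 at 8 of 267 bases and TRAV14N-3 at 5. TRAV16D-DV11 differed from TRAV16 at 5 of 273 bases and TRAV16N at 4. Each of these 6 sequences was carried by at least 99.4% of the contigs of its name. On RefSeq GRCm38.p6, Trav14-3 lies at 14:53763196-53763694 and Trav16 at 14:53743174-53743705, both annotated as V segments.

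Across members with more than 1 named copy, plain and D copies differed at a median of 7 bases (0 to 15 over 27 pairs), plain and N copies at 5 (0 to 22 over 11 pairs), and D and N copies at 3 (1 to 23 over 10 pairs). Some names were therefore not separable by their V region. The commonest V region of TRAV6N-5 (89.9% of its contigs) was identical over 267 bases to that of TRAV6-5, and that of TRAV6D-3 to TRAV6-3.

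TRAV use was broad, and the most used names were alike in WT and Cgas KO. TRAV7D-2 was the most used segment, with 512 of 12774 chains in WT (4.01%, 3.67 to 4.36%) and 593 of 14600 in Cgas KO (4.06%, 3.75 to 4.39%). TRAV6-6 followed with 482 (3.77%) and 522 chains (3.58%), and TRAV4D-4 with 375 (2.94%) and 484 (3.32%). Of these 3 names 2 are D names, and each of the 3 has an annotated copy that no contig named. The next 7 by mean share were TRAV13-1, TRAV6N-7, TRAV7-4, TRAV3D-3, TRAV12D-2, TRAV12D-3 and TRAV4-4-DV10, with 285 to 394 chains each in either library. The 10 most used segments together held 28.0% of WT and 28.4% of Cgas KO chains, and the median segment held 0.818% and 0.870%. Neighbours in this order mostly did not differ beyond counting error, as with TRAV3D-3 (319 WT chains) and TRAV7-4 (320 WT chains). At least 50 chains over both libraries, the minimum for a comparison, were reached by 80 segments, and 8 stayed below.

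By family, TRAV7 (14.7% of WT and 15.6% of Cgas KO chains), TRAV6 (14.9% and 14.4%), TRAV14 (11.9% and 12.1%) and TRAV12 (9.76% and 9.79%) were the most used and held 51.2% and 52.0% of chains together. TRAV9, TRAV13 and TRAV4 followed at 7.83 to 9.38%. TRAV3, TRAV16, TRAV5, TRAV10 and TRAV8 lay between 2.30 and 5.13%. The families of 1 segment each at the 3' end, TRAV17, TRAV19 and TRAV21, lay between 0.644 and 1.27%. TRAV18, also at the 3' end, was named in 2 WT and 9 Cgas KO chains and was the least used family.

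**Figure D1:**
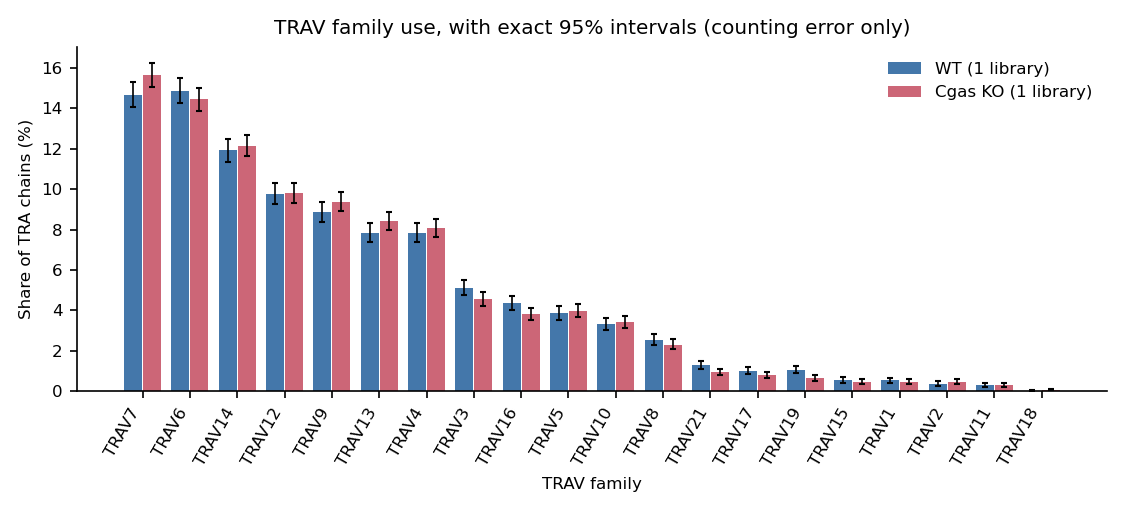
Share of TRA chains (%) by TRAV family in the WT and the Cgas KO library, 1 library each, with exact 95% intervals for counting error. TRAV7 and TRAV6 lead at 14.4 to 15.6% in both libraries, and TRAV19 stands at 1.06% in WT and 0.644% in Cgas KO.

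Few segments differed between the genotypes. At a change of 1.5-fold or more, 0 of 80 TRAV segments were higher in Cgas KO (0% of all 157 V and J segments with enough chains) and 1 was lower (0.637% of 157). That segment was TRAV19, which had 135 WT chains (1.06%) and 94 Cgas KO chains (0.644%), for a ratio of 0.609 (0.463 to 0.799). Its ratio was 0.672 when each distinct rearrangement was counted once and 0.723 over contigs with at least 3 UMIs, both short of a 1.5-fold change. TRAV7N-6 was the highest of the 80, with 106 and 181 chains and a ratio of 1.49 (1.17 to 1.92). Its ratio was 1.58 over distinct rearrangements and 1.66 over contigs with at least 3 UMIs. The other segments at the upper end were TRAV7D-4 (85 and 138 chains, 1.42), TRAV6D-3 (21 and 33, 1.37), TRAV5-1 (1.27) and TRAV13D-2 (229 and 330, 1.26). At the lower end stood TRAV3-4 (40 and 32 chains, 0.700), TRAV13N-4 (49 and 40, 0.714), TRAV21-DV12 (162 and 138, 0.745) and TRAV16 (179 and 153, 0.748). The median ratio over the 80 segments was 0.984.

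The lower ratios gathered at the 3' end of the array, the end nearest to the TRAJ segments. All 13 measured segments from TRAV3-3 to TRAV21-DV12, a stretch chosen after the ratios were seen, had a lower share in Cgas KO (ratios 0.609 to 0.975). Together they held 2331 WT chains (18.2%) and 2284 Cgas KO chains (15.6%), a ratio of 0.857 (0.809 to 0.909). Since the ratios set this stretch, its count, its pooled ratio and the contrast with the other segments depend on the cut and test nothing. The interval takes no account of that choice, and the alternatives and cell classes below are drawn from the same chains. Of the other 21 measured segments of the 3' plain block, 10 were lower and 11 higher, and together their ratio was 1.01 (0.969 to 1.05). Over the 34 segments of this block, the rank correlation of locus order with the ratio was -0.54 (Pearson -0.64), a description of segments that share the 2 libraries. The D block had 12 of 26 segments lower and the N block 7 of 13. Counting each distinct rearrangement once left all 13 lower at 0.858, and keeping 1 barcode of each set that shared chains left all 13 lower at 0.852. Within Cd4 only cells (Cd4 RNA without Cd8a, Cd8b1 or Foxp3) the WT share of the 13 segments was 19.3% and the Cgas KO share 15.95%, giving a ratio of 0.825 (0.759 to 0.896). In cells with both Cd8a and Cd8b1 the ratio was 0.856 (0.731 to 1.002) and in Foxp3+ cells 0.921 (0.635 to 1.33).

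The copy groups differed little between genotypes. Plain names held 6892 WT chains (54.0%) and 7577 Cgas KO chains (51.9%), a ratio of 0.962 (0.931 to 0.994). D names held 31.8% and 33.5%, a ratio of 1.05 (1.01 to 1.10), and N names 14.2% and 14.6%, a ratio of 1.03 (0.963 to 1.09). Within families that have names of more than 1 suffix, the plain ratio was 0.968 (0.935 to 1.001). None of these shares changed 1.5-fold.

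The balance of copies varied more between families than between genotypes. In TRAV16, N copies were the majority (51.8% of WT and 52.8% of Cgas KO chains of the family), plain copies held 32.2% and 27.6%, and D copies 16.01% and 19.6%. In TRAV6 the D copies were the smallest group, at 7.52% and 7.92%, below N copies at 28.9% and 28.7%. TRAV12 and TRAV3 divided between plain and D names alone, with D at 52.8% and 54.9% in TRAV12 and at 48.7% and 53.4% in TRAV3. TRAV14 had 42.9% and 44.0% D names, and TRAV7 only 8.81% and 10.6% N names. No contig carried an N name of TRAV3, TRAV4, TRAV5, TRAV12 or TRAV15, although the annotation holds 10 such V segments. Nor did any contig carry the annotated Trav11n or Trav11d.

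The expression matrices gave a further readout of the names, from other libraries of the same barcoded cells. Trav genes held 74883 UMIs in WT and 78061 in Cgas KO cells, of which 2.71% and 2.86% fell on symbols that no contig carried, led by Trav8-2 (642 and 736 UMIs), Trav13-5 (389 and 404) and Trav13-3 (297 and 347). Among barcodes with 1 TRA contig and a single leading Trav gene, that gene matched the contig's segment in 5217 of 7223 WT barcodes (72.2%, 71.2 to 73.3%) and 5737 of 8073 Cgas KO barcodes (71.1%, 70.1 to 72.1%). The family matched in 75.5% and 74.6%. The copy suffix matched in 80.7% and 80.3%, a count that includes leading genes of other segments and families with the same suffix. It is therefore no check of the copy of a segment. With at least 3 Trav UMIs the same segment led in 82.2% and 81.2% of barcodes. Segments of which every annotated copy was named had a median of 4.69 Trav UMIs per chain in WT and 4.28 in Cgas KO. Segments with an unnamed copy had 2.48 and 2.52, and 17 of these 36 stood under 1 UMI per chain in each library. TRAV7D-2, the most used contig name, is among them, with 11 UMIs of its own gene for 392 WT chains of barcodes with 1 TRA contig. Copy shares are thus shares of contig names, and how reads of near-identical copies were divided was not tested.

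**Figure D2:**
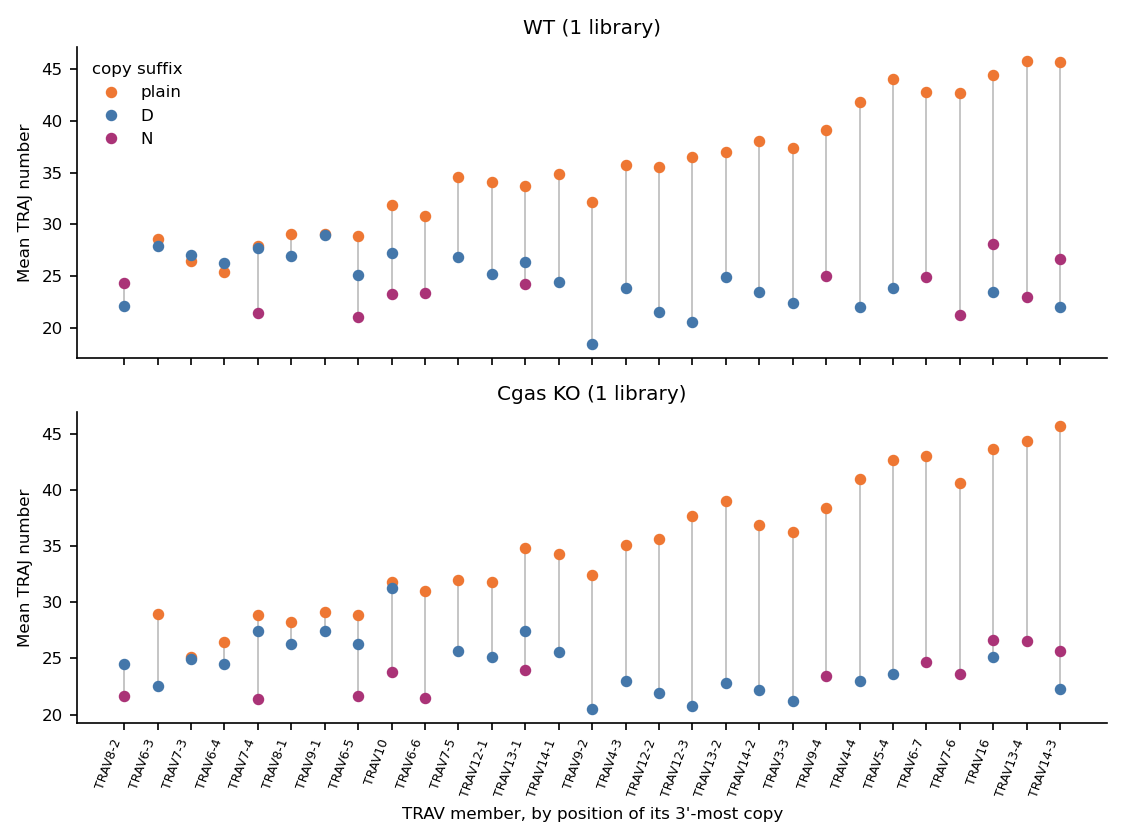
Mean TRAJ number of the plain, D and N copies of each TRAV member with at least 20 chains in both libraries. Plain copies sit above their N copies in 11 of 11 members in each library.

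TRAJ pairing moved with the position of the TRAV segment most closely within the 3' plain block. Over the 34 measured 3' plain segments, the mean TRAJ number increased with locus order with a rank correlation of 0.99 in WT and 0.96 in Cgas KO, from 25.4 to 50.3 and from 25.1 to 49.97. The D and N blocks showed weaker and opposite relations. Over 26 D segments the rank correlation was -0.77 in WT and -0.49 in Cgas KO, and over 13 N segments it was 0.55 and 0.70. Means in the D block lay between 18.4 and 31.3 and in the N block between 21.0 and 29.7 over both libraries. These correlations run over segments of the same 2 libraries and carry no test. Each name was placed at its RefSeq position, although many D names belong to members with an annotated copy that no contig named. Whether such names pool chains of copies in other blocks was not tested. At the 3' end, TRAV21-DV12 had a mean TRAJ number of 50.3 in WT and 48.8 in Cgas KO, and TRAV19 of 49.6 and 49.97. TRAV19 joined TRAJ57 in 43 of 135 WT chains (31.9%) and 25 of 94 Cgas KO chains (26.6%), and TRAV21-DV12 did so in 21.0% and 21.7%. TRAV17 (46.9 and 43.8), TRAV13-4-DV7 (45.8 and 44.4) and TRAV14-3 (45.7 and 45.7) came next. The lowest means were those of TRAV9D-2 (18.4 and 20.5), TRAV12D-3 (20.5 and 20.7), TRAV6N-5 (21.0 and 21.6), TRAV7N-4 (21.4 and 21.4) and TRAV12D-2 (21.6 and 22.0), all D or N copies.

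**Figure D3:**
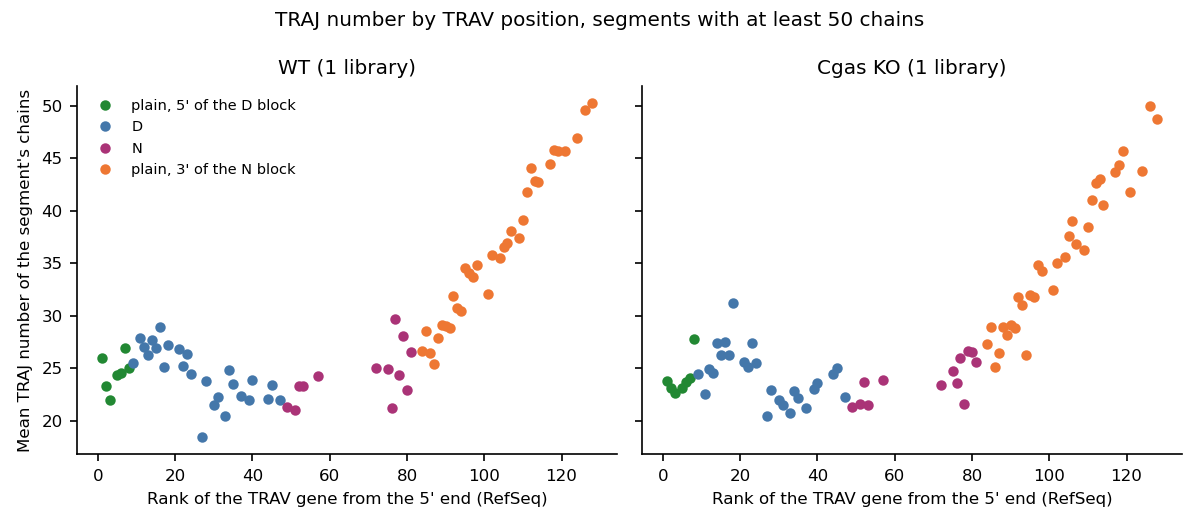
Mean TRAJ number of each TRAV segment with at least 50 chains, in order along the locus from the 5' end, for WT and Cgas KO. The 3' plain segments climb from about TRAJ 25.4 to 50.3 in WT, whereas D and N segments stay between 18.4 and 31.3 in both libraries.

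Some near-identical copies paired with different parts of the TRAJ array, and others hardly differed. TRAV14-3 had a mean TRAJ number of 45.7 in both libraries (quartiles 40 to 53 in WT and 40 to 56 in Cgas KO). TRAV14D-3-DV8, which differs from it at 8 bases in the sequences printed above, had means of 22.0 and 22.3 (quartiles 12 to 31 in both). TRAV14N-3 had means of 26.6 and 25.6. TRAV16 showed the same order, with 44.4 and 43.7 for the plain copy, 23.5 and 25.1 for TRAV16D-DV11 and 28.1 and 26.6 for TRAV16N. Over members with at least 20 chains per copy, the plain copy had the higher mean TRAJ number than its D copy in 21 of 23 WT and 24 of 24 Cgas KO pairs (median difference 10.5 and 10.3). It was higher than its N copy in 11 of 11 pairs in each library (14.1 and 15.02). D and N copies showed no common order, with D higher in 4 of 7 and 5 of 8 pairs. TRAV6-5 and TRAV6N-5, whose commonest V regions are identical, had means of 28.8 and 28.9 against 21.0 and 21.6. TRAV6-3 and TRAV6D-3 gave 28.5 against 27.9 in WT and 28.9 against 22.6 in Cgas KO. TRAV7-4 and TRAV7D-4, which differ at 1 base, gave 27.9 against 27.7 in WT and 28.9 against 27.5 in Cgas KO. With 2 differing bases, TRAV7-3 and TRAV7D-3 gave 26.5 against 27.0 in WT and 25.1 against 24.9 in Cgas KO. TRAV9-1 and TRAV9D-1, also with 2, gave 29.1 against 29.0 and 29.2 against 27.5. For TRAV10 and TRAV10D, again with 2, the means were 31.9 against 27.3 in WT and 31.8 against 31.3 in Cgas KO.

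**Figure D4:**
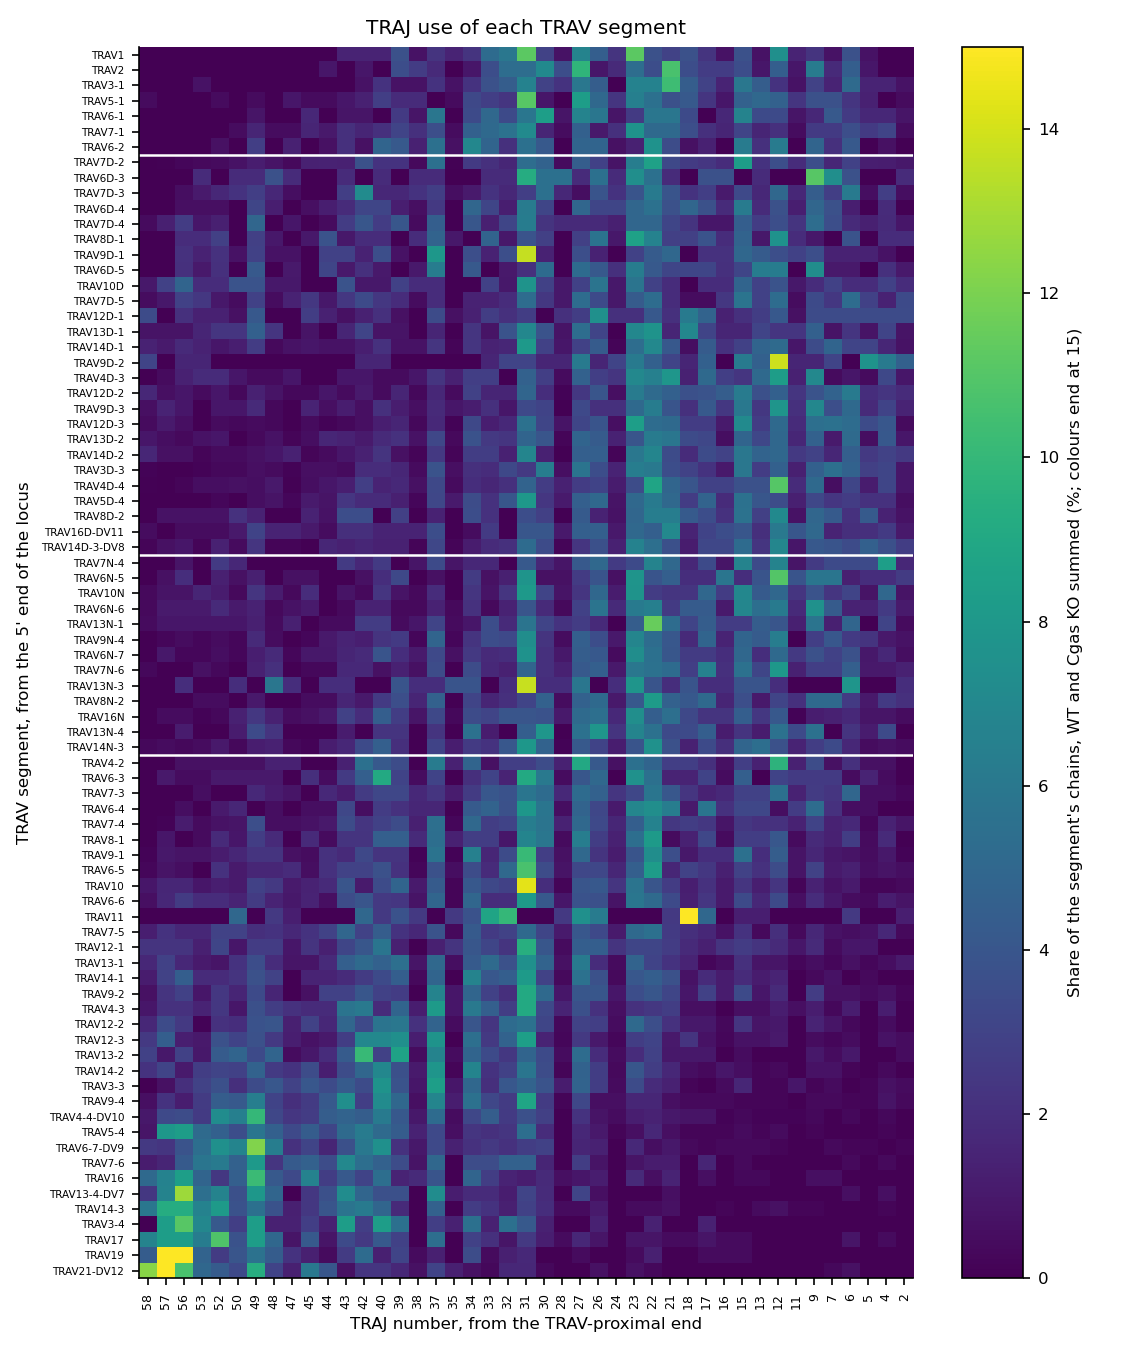
Share (%) of the chains of each TRAV segment that carry each TRAJ segment, WT and Cgas KO chains summed, with TRAV in locus order and colours that end at 15%. The 3' plain segments move toward high TRAJ numbers, and D and N segments spread over the lower numbers.

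Chains that joined a TRAJ segment near the TRAV array, TRAJ40 or higher, had a lower share in Cgas KO in each copy group. They were 29.1% of all WT chains and 25.9% of all Cgas KO chains. Among plain names they were 41.6% (40.4 to 42.8%) and 37.97% (36.9 to 39.1%). Among D names they were 14.0% (13.0 to 15.1%) and 13.0% (12.1 to 14.0%), and among N names 15.5% (13.8 to 17.2%) and 12.7% (11.3 to 14.2%), so the intervals overlapped for D and N names. Joins of a 3' plain TRAV to such a TRAJ made up 2828 WT chains (22.1%) and 2840 Cgas KO chains (19.5%). Of the 80 measured segments, 49 had a lower mean TRAJ number in Cgas KO, with a median difference of -0.48. In Cd4 only cells near TRAJ segments were in 30.1% of WT and 26.4% of Cgas KO chains, in Cd8a+Cd8b1+ cells in 32.0% and 26.2%, and in Foxp3+ cells in 26.9% and 26.4%. The difference in Foxp3+ cells lay within the counting interval of either share (23.0 to 31.2% in WT, 21.9 to 31.3% in Cgas KO).

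To describe TRAV use by coreceptor and lineage RNA, each cell was placed in a class by its UMIs. Foxp3+ cells had a UMI of Foxp3, the regulatory T cell transcription factor, Cd4 only cells had Cd4 and no Cd8a, Cd8b1 or Foxp3, and Cd8a+Cd8b1+ cells had both CD8 genes and no Foxp3. These held 464, 6092 and 1843 TRA chains in WT and 356, 6889 and 1844 in Cgas KO. The cells labelled CD4+ thus included 2180 WT and 2149 Cgas KO cells (16.7% and 14.4%) with both CD8 RNAs, of which 893 and 881 had a Cd4 UMI. All 7 genes of a double-positive thymocyte list, such as Rag1, were found in every class of both libraries. In Cd8a+Cd8b1+ cells their summed level was 1085 (WT) and 1190 CPM (Cgas KO), against 154 and 166 CPM in Cd4 only cells. Of the 6 genes of the CD8 list, Cd8a and Cd8b1 were at 0 in Cd4 only cells by definition. Among cells that had both CD8 genes and no Cd4 UMI, 12 of 1299 (WT, 0.924%) and 13 of 1281 (Cgas KO, 1.01%) had a Foxp3 UMI, at medians of 4756 and 4192 UMIs per cell. Over all cells its share was 3.98% (WT) and 2.58% (Cgas KO).

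TRAV use differed between Cd8a+Cd8b1+ and Cd4 only cells, and the differences recurred in both libraries. Of 74 segments with at least 50 chains in these classes, 12 were higher in Cd8a+Cd8b1+ cells by 1.5-fold or more in both libraries and 9 were lower. Over all 151 V and J segments measured, 12.6% were higher and 8.61% lower by that rule. The direction was the same in both libraries for 64 of the 74, and the rank correlation of their WT and Cgas KO ratios was 0.78, over segments that share no cells between libraries. The rank correlation of the mean ratio with locus order was -0.01 over the same 74 segments.

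All 3 copies of TRAV16 were higher in Cd8a+Cd8b1+ cells. TRAV16 held 57 of 1843 chains there and 61 of 6092 chains of Cd4 only cells in WT (3.09% against 1.001%, ratio 3.09, 2.11 to 4.51), and 54 against 52 chains in Cgas KO (2.93% against 0.755%, ratio 3.88, 2.60 to 5.79). The ratio of TRAV16D-DV11 was 3.69 in WT and 2.13 in Cgas KO, and that of TRAV16N was 2.02 and 3.11. As a family, TRAV16 stood at 2.55 (2.06 to 3.15) and 3.11 (2.50 to 3.86). TRAV12-1 had 35 against 31 chains in WT (ratio 3.73, 2.24 to 6.26) and 32 against 44 in Cgas KO (2.72, 1.67 to 4.38). TRAV9D-3 stood at 2.41 and 2.04. The other higher segments, with ratios of 1.53 to 2.29, were TRAV12D-3, TRAV12-2, TRAV8D-2, TRAV8N-2, TRAV7D-5, TRAV3-1 and TRAV3D-3. The TRAV12 family as a whole stood at 1.62 and 1.65.

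Among the lower segments, TRAV4D-4 held 24 of 1843 Cd8a+Cd8b1+ chains and 176 of 6092 Cd4 only chains in WT (1.30% against 2.89%, ratio 0.451, 0.281 to 0.693). In Cgas KO it held 22 against 255 chains (1.19% against 3.70%, ratio 0.322, 0.198 to 0.499). The remaining 8 were TRAV6-4 (0.232 and 0.664), TRAV4-2 (0.472 and 0.456), TRAV9-1 (0.419 and 0.634), TRAV14D-3-DV8 (0.482 and 0.565), TRAV7-4 (0.461 and 0.616), TRAV6-5 (0.499 and 0.578), TRAV7D-2 (0.477 and 0.638) and TRAV9N-4 (0.575 and 0.612). TRAV6D-5 stood at 0.245 in WT and 0.747 in Cgas KO, short of 1.5-fold in the latter. The TRAV14 family stood at 0.686 and 0.708, TRAV7 at 0.722 and 0.770 and TRAV4 at 0.767 and 0.548. When the class was limited to cells with no Cd4 UMI, the ratio of TRAV16 was 3.67 in WT and 4.57 in Cgas KO, and that of TRAV4D-4 was 0.387 and 0.289. Over 6 alternatives at the 1.5-fold change, 7 of the 12 higher segments passed in every one (TRAV12-1, TRAV12D-3, TRAV16, TRAV16D-DV11, TRAV16N, TRAV8N-2 and TRAV9D-3). So did 4 of the 9 lower ones (TRAV14D-3-DV8, TRAV4D-4, TRAV6-5 and TRAV7-4). Of the other higher segments, TRAV12-2 and TRAV8D-2 passed in 5, TRAV7D-5 in 3, TRAV3D-3 in 2 and TRAV3-1 in 1. The other lower segments passed in 4 or 5.

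**Figure D5:**
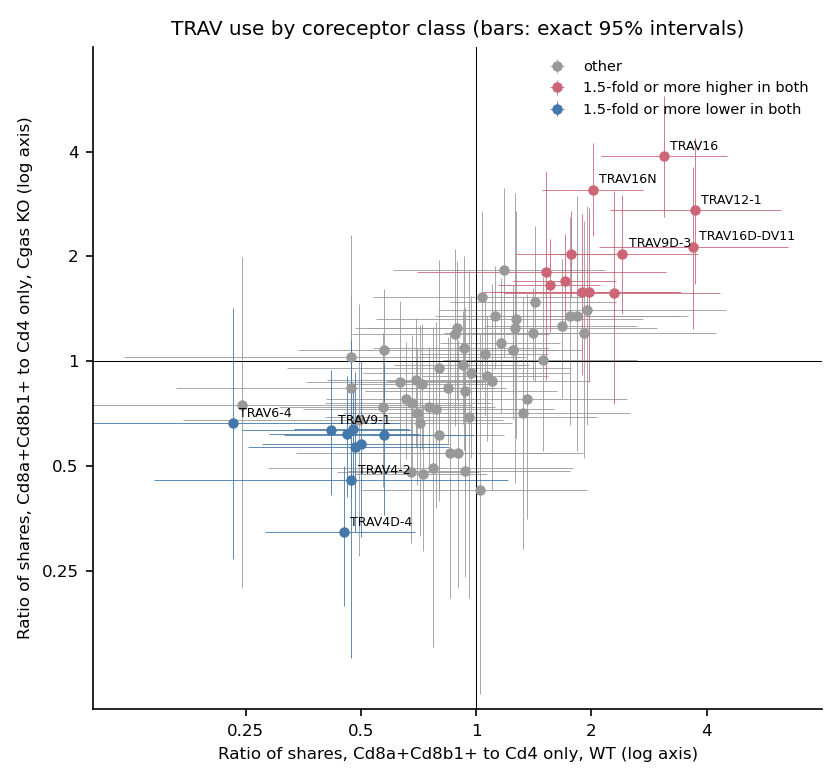
Ratio of the share in Cd8a+Cd8b1+ cells to the share in Cd4 only cells for each TRAV segment with at least 50 chains, WT on the x axis and Cgas KO on the y axis, both logarithmic. Bars are exact 95% intervals; TRAV16 lies at 3.09 and 3.88, and TRAV4D-4 at 0.451 and 0.322.

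Copies of a member mostly fell on the same side of this comparison. Of 38 pairs of copies from 26 members, 32 had mean log2 ratios of the same sign. Members with 3 named copies can enter with more than 1 pair. In 16 pairs with no difference in CDR1 or CDR2, 15 did so, with a median absolute difference of 0.31 on the log2 scale. In 22 pairs with a difference, 17 did so, with a median of 0.52. The CDR1 bases of 3 pairs are given because these pairs had CDR1 differences and stood apart or stayed together, with capitals marking bases that differ from the plain copy above.
TRAV12-1 CDR1: actacttatttaactattgcc
TRAV12D-1 CDR1: actGcttaCtCaGAtGttgcc
TRAV7-5 CDR1: gatggtacttctaacaac
TRAV7D-5 CDR1: gatCgtTcttctGacaac
TRAV16 CDR1: acccgggacagttcttacttc
TRAV16D-DV11 CDR1: acccAggacagttcttacttc
TRAV12-1 and TRAV12D-1, which differ at 6 CDR1 bases, had mean log2 ratios of 1.67 and 0.62. TRAV7-5 and TRAV7D-5, with 3 differing CDR1 bases, stood at -0.08 and 0.79, on opposite sides. TRAV12D-1 and TRAV7D-5 are contig names, and the member of each has an annotated N copy that no contig named. In barcodes with 1 TRA contig, Trav12d-1 had 0 UMIs for 53 WT and 52 Cgas KO chains. Trav7d-5 had 2 UMIs for 56 WT chains and 0 for 81 Cgas KO chains. Which copy these chains use was not tested. TRAV16 and TRAV16D-DV11, with 1 differing CDR1 base, stood at 1.79 and 1.49. Not every pair with 1 differing CDR1 base stayed together. TRAV13-2 and TRAV13D-2 stood at 0.55 and -0.48, TRAV10 and TRAV10D at -0.42 and 0.32, and TRAV5-4 and TRAV5D-4 at 0.07 and -0.62. The gap of TRAV12-1 and TRAV12D-1 was the largest of the 38 pairs (1.05), and that of TRAV13-2 and TRAV13D-2 was 1.04. No intervals were taken for these gaps. Whether the number of differing CDR1 bases goes with the gap between copies was not tested. TRAV4-4-DV10 and TRAV4D-4 have the same CDR1 and CDR2 bases and were both lower, at -0.77 and -1.39.
TRAV4D-4 CDR1: accaccatgagggct
TRAV4D-4 CDR2: ttggcttcaggaaca
The copy groups themselves changed less than 1.5-fold between the classes. Plain names had ratios of 0.983 and 0.995 in Cd8a+Cd8b1+ against Cd4 only cells, and of 0.928 and 0.996 in Foxp3+ against Cd4 only cells.

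In Foxp3+ cells, chains were too few to compare single segments, so families were compared with Cd4 only cells. Of 15 families, 0 were higher and 2 were lower by 1.5-fold or more in both libraries. Over all 84 V families and J segments measured, 0% were higher and 5.95% lower by that rule. TRAV21 had 4 Foxp3+ chains in WT and 2 in Cgas KO (ratios 0.559, 0.149 to 1.48, and 0.530, 0.0630 to 1.98). TRAV8 had 7 and 5 chains (ratios 0.613, 0.242 to 1.29, and 0.605, 0.194 to 1.44). All of these intervals include a ratio of 1, so neither difference was detectable at this depth, and neither family passed when Foxp3+ cells needed 2 Foxp3 UMIs. The other families with the most shifted ratios of the same direction were TRAV19 (0.740 and 0.806), TRAV9 (0.849 and 0.975), TRAV7 (0.886 and 0.927), TRAV13 (1.07 and 1.05) and TRAV16 (1.09 and 1.32).

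TRAV11 joined to TRAJ18 is the invariant alpha chain of natural killer T (NKT) cells, an innate-like lineage that depends on the transcription factor Zbtb16. This pair was found in 7 WT chains (0.0548%, 0.0220 to 0.113%) and 11 Cgas KO chains (0.0753%, 0.0376 to 0.135%). TRAJ18 was in 17.9% of the 39 WT TRAV11 chains and 26.8% of the 41 Cgas KO ones, against 1.79% and 1.99% of the chains of other TRAV segments. TRAV11 is here a contig name: in the expression matrices Trav11n held 67 UMIs in each library, and Trav11 itself 3 in WT and 6 in Cgas KO, so which copy these chains use was not resolved. With 1 barcode kept of each set that shared chains, the Cgas KO share was 0.0805%. With each distinct rearrangement counted once, the pair was in 6 of 12287 WT chains and 5 of 13100 Cgas KO chains (0.0382%). The Cgas KO share was then no longer the higher one, so the order of the libraries depended on how repeats were counted. Of the 18 chains, 13 carried the commonest CDR3 amino acid sequence, which was encoded by 4 sequences of 45 bases. Each of the others differs from variant 1 at 1 base, given as a capital. They were chosen by their shared amino acid sequence, so their likeness in bases is no separate result.
variant 1: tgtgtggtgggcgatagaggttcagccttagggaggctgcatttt
variant 2: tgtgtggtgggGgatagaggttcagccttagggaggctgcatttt
variant 3: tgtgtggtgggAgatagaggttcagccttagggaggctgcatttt
variant 4: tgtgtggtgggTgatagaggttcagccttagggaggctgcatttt
Variant 1 was found in 0 WT and 6 Cgas KO chains, variant 2 in 2 and 2, variant 3 in 1 and 1, and variant 4 in 1 and 0. Zbtb16 was found in 4 of 7 WT barcodes with this pair (46 UMIs, 479 CPM) and 7 of 11 Cgas KO barcodes (107 UMIs, 652 CPM). Barcodes with TRAV11 and another TRAJ had 0 Zbtb16 UMIs in 32 WT and 30 Cgas KO barcodes. An innate-like list of 9 genes summed to 1623 and 1853 CPM in the TRAV11-TRAJ18 barcodes, against 368 and 393 CPM over all cells, with Klrb1c and Klrb1 at 0 in both libraries. TRAV1 joined to TRAJ33, the invariant alpha chain of mucosal-associated invariant T (MAIT) cells, was found in 4 WT and 3 Cgas KO chains, and their barcodes had 0 Zbtb16 UMIs.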

How the data were processed

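TRA contigs and gene expression were analysed in 4 libraries, 1 of each kind for WT and Cgas KO sorted thymocytes. The deposited matrices hold UMI counts per gene and barcode, and their headers give Cell Ranger 8.0.1 as the authors' software. Version 7.0 of Cell Ranger, with Seurat 5.1.0 and mm10, is listed in the submitters' processing notes, a conflict that was not settled. The labels' protocols name a 3' kit for the expression libraries and a TCR kit for the TCR libraries. Trav V segments nevertheless held 74883 UMIs in the WT and 78061 in the Cgas KO expression matrix, and most leading Trav genes matched the contigs. The kit of the expression libraries was therefore not settled. The contig tables deposited by the authors give a V and a J name and a UMI count per contig, and every contig in them is marked productive. They carry no coordinates, so positions are those of RefSeq GRCm38.p6 by symbol.

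Barcodes with at least 10% of the 99th percentile UMI total (1851 UMIs in WT, 1638 in Cgas KO), at least 500 genes and at most 10% mitochondrial UMIs were kept. TCR barcodes matched a kept cell in 97.9% and 97.0% of cases. No doublet caller was run; 1167 and 1387 barcodes carried 2 or more TRB contigs, and leaving them out was an alternative. Shares have exact Clopper-Pearson intervals and ratios exact conditional intervals. No test was run, since each genotype has 1 library. A segment was compared with at least 50 chains over both libraries, a family in the Foxp3+ comparison with at least 200 chains over both libraries, and a change meant 1.5-fold, in both libraries for class comparisons. Copies were compared over their commonest V region, framework 1 to framework 3. Named are the 10 most used segments, the 5 highest and 5 lowest in each comparison, the 5 highest and 5 lowest mean TRAJ numbers, the segments past the threshold, and copies shown for contrast. Members and lists were chosen with earlier results of these data known. The alternatives were all barcodes, distinct rearrangements, barcodes with 1 TRA contig, contigs with at least 3 UMIs, no second TRB contig, other folds and minimums, other class definitions, cells thinned to 2000 UMIs, and, added after the data were seen, 1 barcode of each set that shared chains. The counting steps were tested on simulated data. Scripts ran in Python 3.11.15 with matplotlib 3.10.9, pandas 2.3.3, scipy 1.17.1 and numpy 2.4.6.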

Additional observations from a re-analysis of the deposited data

How the results depend on the processing

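No paired analysis was possible because each genotype has 1 library and the labels carry no replicate numbers, and for the same reason no replicate could be left out. The count of TRAV segments changed 1.5-fold between genotypes was 1 and became 2 with all barcodes, 3 with barcodes of 1 TRA contig, 2 with contigs of at least 3 UMIs, 2 without barcodes of 2 or more TRB contigs, 2 with 1 barcode of each set that shared chains, 15 at a lower fold (6 higher, 9 lower) and 0 at 2-fold. The count of Cd8a+Cd8b1+ against Cd4 only segments was 21 and became 39 at that lower fold and 13 at a minimum of 200 chains. The share of all V and J segments that changed was taken at the 1.5-fold rule alone. Whether the TRAV counts at the other folds exceed such a share was not tested. The count of lower families in Foxp3+ cells was 2 and became 0 in thinned cells, 0 with barcodes of 1 TRA contig, 1 without barcodes of 2 or more TRB contigs and 0 when Foxp3+ needed 2 Foxp3 UMIs. The TRAV21 ratio in Foxp3+ cells turned to 1.10 in Cgas KO in thinned cells and to 1.03 in WT with 2 Foxp3 UMIs. With barcodes of 1 TRA contig, near TRAJ segments were in 39.6% of Cgas KO plain chains, and TRAV1-TRAJ33 in 0% of Cgas KO chains. With TRAJ45 as the limit, near joins were 27.6% and 24.3% of plain, 8.02% and 6.91% of D and 7.87% and 6.01% of N chains in WT and Cgas KO. With at least 3 Trav UMIs the same segment led in 82.2% and 81.2% of barcodes. The cause was not tested for any of these. Of values recomputed under an alternative, 23 that answer a comparison moved and 123 did not. Among those for single segments or families, 3 moved, 2 reversed and 439 did neither. These limits were wide. A share or ratio counted as unmoved inside its main interval, and a count within 1.5-fold. Mean TRAJ numbers did so within the standard deviation of the segment's chains. The genotype ratio of TRAV19, for instance, counted as unmoved between 0.609 and 0.723. The tallies therefore say little about small shifts. Depth limits the Foxp3+ comparison (464 and 356 chains) and the invariant pairs most.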

Other observations

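Barcodes with 2 TRA contigs held both chains from the 3' plain block in 558 of 1842 WT barcodes (30.3%, 28.2 to 32.4%) and in 547 of 2141 Cgas KO barcodes (25.5%, 23.7 to 27.5%). The square of the share of these chains in that block was 26.0% and 21.3%. Among barcodes with at most 1 TRB contig the values were 31.0% against 25.6% in WT and 26.7% against 21.5% in Cgas KO.

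TRAV10 and TRAV9D-1 most often joined TRAJ31, TRAV10 in 30 of 261 WT chains (11.5%) and 50 of 296 Cgas KO chains (16.9%) and TRAV9D-1 in 10 of 69 (14.5%) and 9 of 70 (12.9%). Where the leading Trav gene of a barcode with a TRAV12D-3 contig was another one, it was most often Trav12n-3, in 19 WT and 17 Cgas KO barcodes, a name that no contig carried.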
